A study of Mus musculus with 6 samples.

Results

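Deubiquitinating enzymes are the proteases that take ubiquitin off other proteins. Their genes were picked out of a table of mRNA levels in *Uba6*-null (KO) and control (NTC) 4T1 cells by class and by name. They were the protein-coding genes whose names begin with *Usp* and a digit, *Otud*, *Otub* or *Uchl* and a digit, together with *Bap1*, *Cyld*, *Atxn3*, *Josd1*, *Josd2*, *Stambp*, *Brcc3*, *Yod1* and *Zranb1*, without *Usp18*. This gave 70 of the 19255 genes in the table, of which 13747 are protein-coding. *Usp6nl* entered through its name only, since it encodes a GTPase-activating protein for Rab proteins and not a protease. *Uchl1* and *Usp13* were not analysed here.

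The 4T1 line is a line of mouse breast cancer cells that can be grown in BALB/c mice. Both groups were cultured cells: 3 libraries came from KO cells, labelled UBA6 knockout, and 3 from NTC cells, labelled wild type. The study calls its controls for RNA sequencing sgCtrl, a name for a control guide RNA. How these control cells were made is not stated separately. The KO cells carried Cas9 and a lentiviral guide RNA against *Uba6* and had been selected with puromycin. Whether they descend from 1 clone, and whether the 3 libraries of each group are separate cultures, no source used here states, so the p-values below measure the spread between these libraries, part of which may be technical. A general statement of the study says that its results were repeated in biological replicates, without naming these libraries. The purpose of the comparison was to find which mRNAs differ once *Uba6* is disrupted.

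Ubiquitin is joined to proteins by a relay that starts with an E1 enzyme, UBA1 or UBA6, and it is cut off again by deubiquitinating enzymes. The largest family, the ubiquitin-specific proteases (USP), are cysteine proteases, as are the ovarian tumour (OTU), ubiquitin C-terminal hydrolase (UCH) and Machado-Joseph (MJD) families, while the JAMM enzymes are zinc metalloproteases. Some of them recycle ubiquitin at the proteasome, some strip it from histones, and others trim the ubiquitin chains that carry inflammatory and DNA damage signals. Here the values are mRNA levels and say nothing of enzyme activity.

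The catalytic centre that joins the USP genes is written in their DNA, and it is shown for members that were higher or lower in KO cells. The 36 bases around the codon of the active-site cysteine were read from the coding sequence (GENCODE M21 annotation, GRCm38 build), at the place that encodes asparagine, any residue, glycine, asparagine, threonine or serine and then cysteine. Each is given 5′ to 3′ on the coding strand, and capitals mark the cysteine codon.
*Usp22*: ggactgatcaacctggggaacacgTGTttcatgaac
*Usp3*: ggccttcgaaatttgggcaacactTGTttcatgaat
*Usp25*: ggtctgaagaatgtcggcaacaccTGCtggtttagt
*Usp28*: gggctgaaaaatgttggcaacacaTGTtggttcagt
*Usp44*: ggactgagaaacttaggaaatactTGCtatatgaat
*Usp36*: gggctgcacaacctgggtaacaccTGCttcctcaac
*Usp1*: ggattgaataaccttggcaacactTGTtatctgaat
*Usp33*: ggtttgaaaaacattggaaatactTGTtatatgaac
*Usp22* (chr11:61162953-61162988, minus strand), *Usp3* (chr9:66543966-66544001, minus), *Usp25* (chr16:77050513-77050548, plus), *Usp28* (chr9:49003935-49003970, plus) and *Usp44* (chr10:93846506-93846541, plus) were higher in KO cells. *Usp36* (chr11:118284932-118284967, minus), *Usp1* (chr4:98928307-98928342, plus) and *Usp33* (chr3:152363986-152364021, plus) were lower. All of these stretches lie within a coding exon. Over the 28 pairs of these 8 stretches, 21 to 30 of the 36 bases were identical, and the closest homologues, *Usp25* and *Usp28*, shared 30. Of the 48 genes named *Usp* and a digit, *Usp6nl* left out and the splicing factor gene *Usp39* included, 36 held this stretch, among them 11 of 13 that were higher, 4 of 7 that were lower and 16 of 23 that did not pass the test. The stretch was thus found among genes that moved in either direction. Genes without a match to these exact residues, among them *Usp7*, *Usp9x*, *Usp47* and *Usp48*, were not shown to lack the catalytic centre.

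The deposited values are FPKM, fragments scaled to exon length and to the mapped fragments of the library, so levels can be compared between genes. A gene was tested if 3 or more of the 6 libraries reached 0.5 FPKM, which held for 12190 genes. Differences are log2 fold changes (with their standard error, SE) of KO over NTC cells on the log2(FPKM + 0.5) scale, which understates the change of genes with low values. They were tested with limma, adjusted over all genes tested, with a threshold of 0.05. FPKM hold no read counts, so the depth is unknown and no counting interval is given. As a check of the labels, *Uba6* mRNA stood at 10.9, 12.1 and 12.0 FPKM in KO cells, against 16.4, 16.4 and 17.0 FPKM in NTC cells. An mRNA with a frameshift can persist, so this does not measure the loss of the protein. The epithelial markers *Krt8* and *Krt18* were at 551 FPKM or more in every library. Of the leukocyte markers, *Ptprc* and *Lyz2* were listed, with summed levels of 0.00996 to 0.0106 FPKM in KO libraries and 0 to 0.0622 FPKM in NTC libraries.

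Among the deubiquitinating enzymes, 63 of 70 passed the filter on low values. Those that did not were *Otud7a*, *Uchl4* and the 5 genes *Usp17la* to *Usp17le*, all under 0.5 FPKM in every library. The highest of them was *Usp17la*, at 0.316, 0.288 and 0.332 FPKM in KO cells and 0.240, 0.278 and 0.410 FPKM in NTC cells. The 63 that passed had mean levels of 0.773 FPKM (*Usp2*) to 67.5 FPKM (*Otub1*), and 41 of them lay at or above 10 FPKM. The tumour cells thus held mRNA for most of the 70 members listed. Genes of the family that the deposited values do not list are not counted in this.

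In RNA from whole cultures, fewer cells of a kind and less RNA per cell cannot be told apart. In KO cells, 15 members were higher, 15 were lower and 33 did not pass the test. Called members made up 30 of 63 (47.6%), and across all genes tested 47.4% were called, 24.7% of them higher and 22.7% lower as shares of the genes tested. The share of members called thus lay near the background. The KO and NTC values did not overlap for 41 members, 19 with KO above and 22 with KO below, against 57.6% of all genes tested (29.9% above and 27.7% below). The median log2 fold change of the members was 0.03, and that of all genes was 0.01. None of the 63 members changed by as much as 2-fold, whereas 639 genes (5.24%) in the whole table did. The members' changes ran from -0.57 to 0.65 on the log2 scale.

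**Figure D1:**
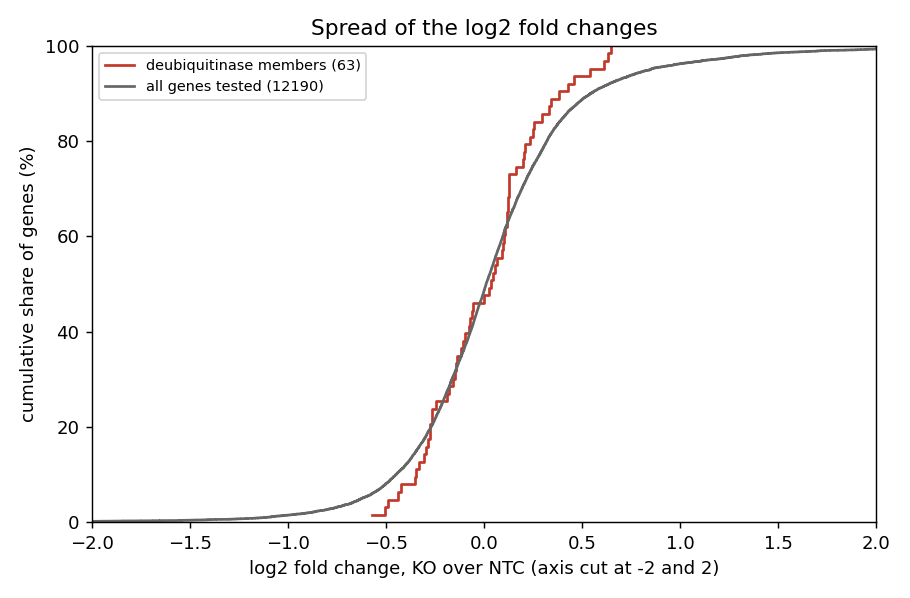
Cumulative share of genes (vertical axis, percent) by log2 fold change of KO over NTC cells (horizontal axis, its far ends left out), as a red line for the 63 deubiquitinase members tested and a grey line for all 12190 genes tested. The red line begins at -0.57 and reaches 100% at 0.65, while the grey line has tails on both sides; the members were chosen by name, and no test was made between the lines.

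The members' FPKM summed to 1241, 1245 and 1257 in KO libraries and to 1262, 1216 and 1226 in NTC libraries, so the summed level of the family overlapped between the groups. It made up 0.349%, 0.352% and 0.356% of all FPKM in KO libraries and 0.351%, 0.335% and 0.342% in NTC libraries. The UCH family summed to 66.2, 68.3 and 62.4 FPKM in KO libraries and to 93.7, 92.1 and 90.0 FPKM in NTC libraries, without overlap. The USP family summed to 878, 888 and 895 FPKM in KO libraries and to 857, 820 and 841 FPKM in NTC libraries, also without overlap and in the other direction. Without *Usp22* the USP sums were 805, 818 and 823 FPKM in KO libraries and 810, 772 and 795 FPKM in NTC libraries, which overlap. The OTU sums, 211, 201 and 206 FPKM in KO libraries and 214, 213 and 205 FPKM in NTC libraries, overlapped. By count, 13 of 44 USP genes were higher and 8 lower, the USP fold *Cyld* included. Over all genes tested, 24.7% were higher and 22.7% lower. Of 10 OTU genes, 1 was higher and 2 lower. All 3 UCH genes tested were lower, against 22.7% of all genes. *Bap1* and *Uchl3* lie on chromosome 14, where the median log2 fold change of all genes was -0.24. Of 3 MJD genes 1 was higher and 1 lower, and of 2 JAMM genes 1 was lower.

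**Figure D2:**
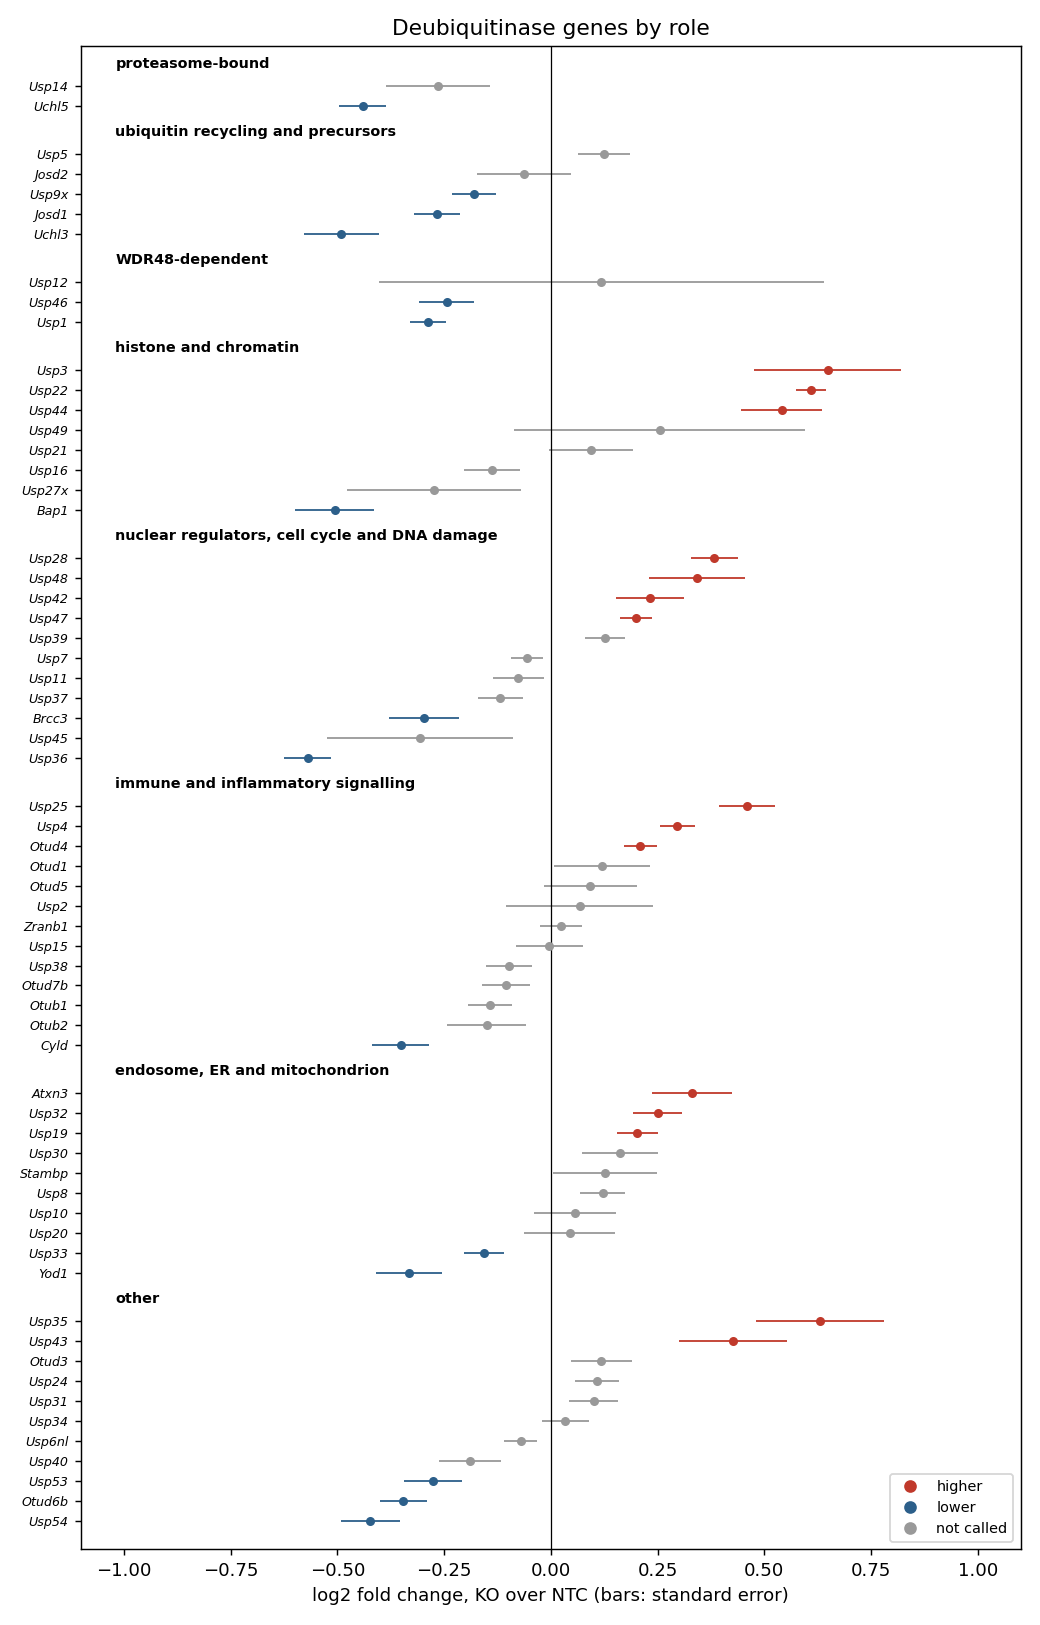
Log2 fold change of KO over NTC cells (horizontal axis) for each of the 63 members tested, grouped by role, with bars for the standard error (3 KO and 3 NTC libraries). Red points were higher (15), blue points lower (15) and grey points did not pass the test (33); *Usp36* lies farthest to the left at -0.57 and *Usp3* farthest to the right at 0.65.

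The proteasome-bound group, with 2 genes tested, had 0 higher and 1 lower. The group for ubiquitin recycling and precursors, which also holds *Usp9x* and *Josd1*, had 0 higher and 3 lower of 5 tested. Over all genes tested, 24.7% were higher and 22.7% lower. Both groups were set by hand, among members chosen with earlier results of these data known, so their counts do not test a direction. After the values were centred on the median of each chromosome, as described further on, *Uchl5* and *Uchl3* kept their calls and *Josd1* and *Usp9x* did not. UCHL5 sits on the regulatory particle of the proteasome and trims ubiquitin from substrates. *Uchl5* stood at 22.6, 23.3 and 23.1 FPKM in KO cells, against 29.2, 32.6 and 32.6 FPKM in NTC cells. Every KO library lay below every NTC library, with a log2 fold change of -0.44 (SE 0.05, adjusted p = 0.000731). *Usp14*, which encodes the other cysteine protease that docks on the proteasome, had 31.2, 35.5 and 37.8 FPKM in KO cells and 50.1, 38.4 and 38.0 FPKM in NTC cells. Its groups were separated by a narrow gap, 1 NTC library stood far above the rest, and the difference missed the threshold (log2 fold change -0.26, adjusted p = 0.116). In the annotation 26.0% of its exon bases overlap *Thoc1* on the opposite strand.

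UCHL3 cuts ubiquitin and its relative NEDD8 from short C-terminal extensions. *Uchl3* stood at 30.0, 30.8 and 24.7 FPKM in KO cells, against 42.1, 38.4 and 39.9 FPKM in NTC cells, with a log2 fold change of -0.49 (SE 0.09, adjusted p = 0.00366). The groups did not overlap. Its transcript shares 851 bases at 96.6% identity with *Uchl4*, whose own values were at or below 0.0448 FPKM. *Usp9x*, which encodes a very large protease that keeps many proteins from degradation, had 32.3, 33.1 and 35.1 FPKM in KO cells and 38.6, 36.3 and 39.3 FPKM in NTC cells (log2 fold change -0.18, adjusted p = 0.0245). Without KO 1, KO 2, NTC 1 or NTC 3 its adjusted p was 0.0773, 0.0704, 0.0692 and 0.0696. With quantile normalization it was 0.0603, and after centring on the chromosome median the log2 fold change of *Usp9x* was -0.00019 (adjusted p = 0.998). *Josd1*, for a membrane-bound Josephin protease, had 21.3, 22.8 and 23.9 FPKM in KO cells and 28.2, 27.0 and 27.0 FPKM in NTC cells (log2 fold change -0.27, adjusted p = 0.00635), and after centring its log2 fold change was -0.10 (adjusted p = 0.162). *Usp5*, for the enzyme that takes apart unanchored ubiquitin chains, had 46.3, 40.8 and 41.8 FPKM in KO cells and 40.8, 39.8 and 37.3 FPKM in NTC cells and did not pass the test (adjusted p = 0.137), and neither did *Josd2* (adjusted p = 0.671).

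Of the 3 proteases that need the WD-repeat protein WDR48 for activity, *Usp1* and *Usp46* were lower, against 22.7% of all genes tested. USP1 removes single ubiquitins from repair factors such as FANCD2 and PCNA. *Usp1* stood at 29.3, 31.1 and 30.0 FPKM in KO cells and at 37.7, 36.6 and 36.3 FPKM in NTC cells, with a log2 fold change of -0.29 (SE 0.04, adjusted p = 0.00150). Libraries of a group lay close together and the groups did not overlap. *Usp46* had 8.12, 8.67 and 7.97 FPKM in KO cells and 9.37, 9.82 and 10.4 FPKM in NTC cells (log2 fold change -0.24, adjusted p = 0.0188). Its adjusted p was 0.0548, 0.0625 and 0.0548 without KO 1, KO 3 and NTC 3. *Usp12*, its close homologue, had 16.0, 5.68 and 16.1 FPKM in KO cells and 14.7, 5.09 and 15.1 FPKM in NTC cells. The library numbered 2 was low in each group, and the difference between the groups missed the threshold (log2 fold change 0.12, SE 0.52, adjusted p = 0.873). The partner gene *Wdr48* did not pass the test.

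Of 8 proteases that act on histones, 3 were higher and 1 was lower, against 24.7% higher and 22.7% lower over all genes tested. USP22 is the protease of the SAGA coactivator complex, which takes ubiquitin off histones at active genes. *Usp22* stood at 73.1, 70.8 and 72.6 FPKM in KO cells and at 47.0, 47.9 and 46.5 FPKM in NTC cells, or 72.1 ± 1.22 against 47.1 ± 0.743 FPKM (mean ± SD, n = 3 each). The gap between the groups was many times the spread within either, with a log2 fold change of 0.61 (SE 0.03, adjusted p = 2.84e-05). It was the second most abundant member, and its gene (ENSMUSG00000042506) lies on chromosome 11 from 61151785 to 61175055 on the minus strand. *Usp27x*, which encodes a homologue that can take the place of USP22 on the same adaptor proteins, had 2.52, 2.73 and 1.43 FPKM in KO cells and 3.07, 2.38 and 2.74 FPKM in NTC cells and did not pass the test (adjusted p = 0.308). The ratio of the *Usp22* mean to the *Usp27x* mean was 32.4 in KO cells and 17.3 in NTC cells.

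USP3 and BAP1 both take ubiquitin off histones, and their mRNAs moved in opposite directions. *Usp3* stood at 15.1, 20.4 and 12.3 FPKM in KO cells and at 10.6, 9.95 and 8.82 FPKM in NTC cells. Its KO libraries were widely spread but all lay above the NTC libraries (log2 fold change 0.65, SE 0.17, adjusted p = 0.0197). Without NTC 3 the adjusted p was 0.0626, with a log2 fold change of 0.58. BAP1 is a tumour suppressor that works with ASXL proteins. *Bap1* stood at 13.6, 14.2 and 14.5 FPKM in KO cells and at 22.4, 21.1 and 17.4 FPKM in NTC cells, with a log2 fold change of -0.51 (SE 0.09, adjusted p = 0.00416). All KO libraries lay below the lowest NTC library. *Usp44*, for a protease of the mitotic checkpoint and of histones, had 6.18, 7.48 and 7.03 FPKM in KO cells and 4.97, 4.59 and 4.18 FPKM in NTC cells (log2 fold change 0.54, SE 0.09, adjusted p = 0.00338). *Usp16*, *Usp21* and *Usp49* did not pass the test. For *Usp49*, at 1.20 to 3.17 FPKM in KO cells and 1.05 to 2.49 FPKM in NTC cells, 51.2% of the exon bases are also annotated to *Gm20517*.

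**Figure D3:**
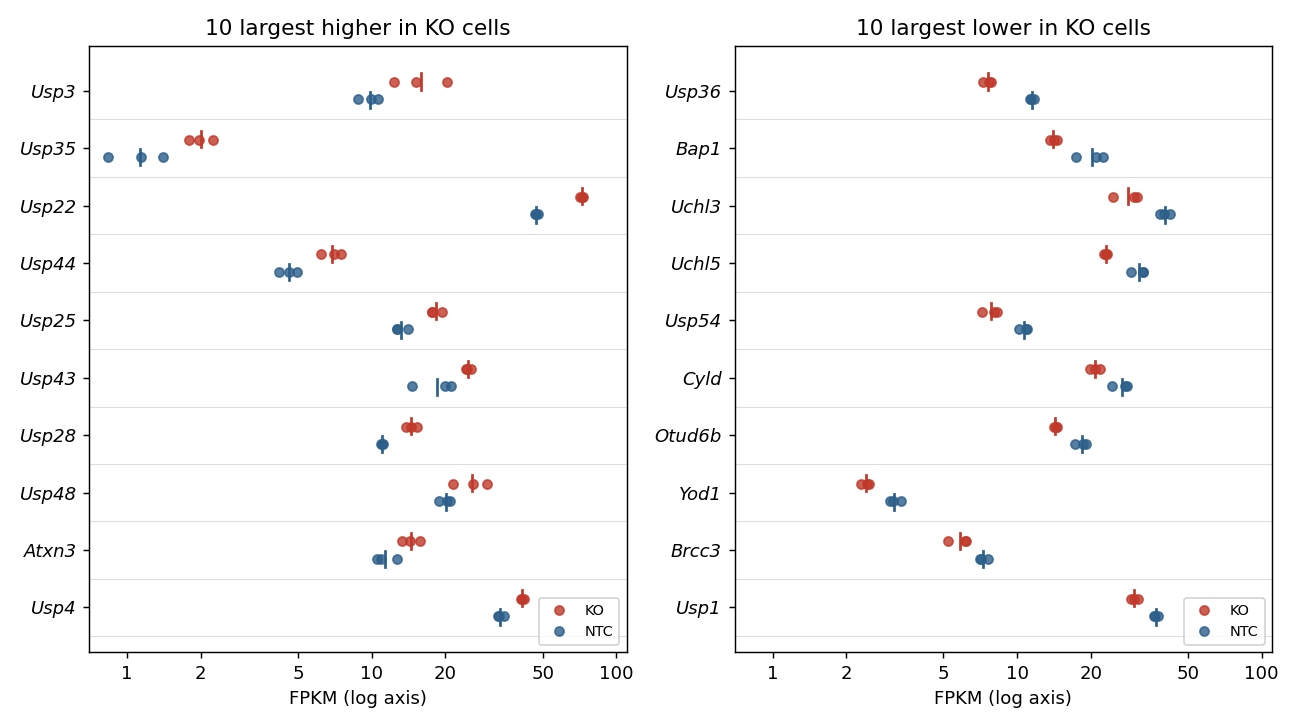
FPKM on a log axis (horizontal) in each library for the 10 members with the largest higher calls (left panel) and the 10 with the largest lower calls (right panel), with KO points in red above NTC points in blue and a short line at each group mean (3 libraries per group). In all 20 genes the KO and NTC points do not overlap; the gap is narrow for *Usp48*, at 21.5 to 29.6 FPKM in KO cells against 18.9 to 20.9 FPKM in NTC cells.

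Of 11 nuclear regulators of the cell cycle and DNA damage, 4 were higher and 2 lower. Shares over all genes tested were 24.7% higher and 22.7% lower. USP36 is a protease of the nucleolus, where ribosomes are made, and its gene (ENSMUSG00000033909) lies on chromosome 11 from 118259651 to 118290244 on the minus strand. *Usp36* stood at 7.67, 7.80 and 7.24 FPKM in KO cells and at 11.4, 11.3 and 11.7 FPKM in NTC cells, or 7.57 ± 0.293 against 11.5 ± 0.220 FPKM (mean ± SD, n = 3 each). The groups did not overlap, with a log2 fold change of -0.57 (SE 0.06, adjusted p = 0.000254). *Usp42*, its closest homologue, had 8.57, 9.53 and 9.54 FPKM in KO cells and 8.20, 7.04 and 8.09 FPKM in NTC cells, with a log2 fold change of 0.23 that passed the test narrowly (adjusted p = 0.0496). The ratio of the *Usp36* mean to the *Usp42* mean was 0.822 in KO cells and 1.48 in NTC cells, so the more abundant of the pair differed between the groups. The call of *Usp42* was lost in most alternatives, for example with an adjusted p of 0.132 without KO 2, 0.135 without KO 3, 0.0570 without NTC 1, 0.128 without NTC 2 and 0.0674 without NTC 3.

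USP28 stabilises MYC and other short-lived nuclear proteins. *Usp28* stood at 14.5, 13.8 and 15.3 FPKM in KO cells and at 11.1, 10.9 and 11.0 FPKM in NTC cells (log2 fold change 0.38, SE 0.06, adjusted p = 0.00146). Its closest homologue *Usp25*, which encodes a regulator of inflammatory receptor signalling, had 17.6, 19.4 and 17.7 FPKM in KO cells and 12.7, 12.7 and 14.0 FPKM in NTC cells (log2 fold change 0.46, adjusted p = 0.00139). Neither gene's groups overlapped. *Usp48* had 21.5, 29.6 and 26.0 FPKM in KO cells and 18.9, 20.9 and 20.2 FPKM in NTC cells (log2 fold change 0.34, adjusted p = 0.0424), and its adjusted p was 0.0959, 0.106, 0.115, 0.0678 and 0.0875 without KO 2, KO 3, NTC 1, NTC 2 and NTC 3. *Usp47*, for a protease that stabilises a DNA repair polymerase, had 56.5, 55.9 and 57.5 FPKM in KO cells and 50.5, 47.8 and 49.7 FPKM in NTC cells (log2 fold change 0.20, adjusted p = 0.00476). Its homologue *Usp7*, for the protease that controls MDM2, had 55.2, 57.3 and 57.4 FPKM in KO cells and 58.0, 60.3 and 58.4 FPKM in NTC cells and missed the threshold (log2 fold change -0.06, adjusted p = 0.260). *Usp47* and *Usp7* were thus at equal mean levels in KO cells (ratio of *Usp7* to *Usp47* 1.00), against a ratio of 1.19 in NTC cells. *Brcc3*, for the metalloprotease of the BRCA1 and BRISC complexes, had 5.21, 6.18 and 6.13 FPKM in KO cells and 7.14, 7.03 and 7.63 FPKM in NTC cells (log2 fold change -0.30, adjusted p = 0.0230). The adjusted p for *Brcc3* was 0.0509 without NTC 1 and 0.0688 without NTC 3. *Usp11*, *Usp37*, *Usp39* and *Usp45* did not pass the test, with log2 fold changes of -0.31 to 0.13. *Usp45* lay at 6.39, 8.17 and 12.7 FPKM in KO cells and at 10.6, 11.6 and 10.6 FPKM in NTC cells, and without KO 3 it passed (log2 fold change -0.57, adjusted p = 0.0114).

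Among 13 enzymes of immune and inflammatory signalling, 3 were higher (*Usp25*, *Usp4* and *Otud4*), 1 was lower and 9 did not pass the test. Over all genes tested, 24.7% were higher and 22.7% lower. CYLD cuts the ubiquitin chains that activate NF-κB and so holds that pathway back. *Cyld* stood at 21.9, 20.8 and 19.9 FPKM in KO cells and at 27.7, 24.5 and 28.1 FPKM in NTC cells, with a log2 fold change of -0.35 (SE 0.07, adjusted p = 0.00481). No KO library reached the lowest NTC library. USP4 acts on TGF-β and NF-κB signalling. *Usp4* had 41.1, 41.9 and 40.8 FPKM in KO cells and 32.7, 34.8 and 33.1 FPKM in NTC cells (log2 fold change 0.30, SE 0.04, adjusted p = 0.00123). Its homologue *Usp15* had 16.8, 16.5 and 16.3 FPKM in KO cells and 16.5, 14.9 and 18.4 FPKM in NTC cells and was the member nearest to no change (log2 fold change -0.0032, adjusted p = 0.979).

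*Otud4*, whose product scaffolds other deubiquitinases and acts in antiviral signalling, had 50.3, 52.8 and 51.5 FPKM in KO cells and 44.6, 43.4 and 45.6 FPKM in NTC cells (log2 fold change 0.21, adjusted p = 0.00456). *Otub1*, the most abundant member, encodes an enzyme that also blocks a ubiquitin-conjugating enzyme. It had 65.5, 62.3 and 64.7 FPKM in KO cells and 73.8, 72.8 and 66.2 FPKM in NTC cells. Its groups did not overlap, but its log2 fold change of -0.14 missed the threshold (adjusted p = 0.0568) and passed it without NTC 3 (adjusted p = 0.0126). *Zranb1*, for the OTU enzyme TRABID, had 10.4, 10.4 and 10.7 FPKM in KO cells and 10.3, 10.1 and 10.6 FPKM in NTC cells, with a log2 fold change of 0.02 (adjusted p = 0.727). *Otub2*, *Otud1*, *Otud5*, *Otud7b*, *Usp2* and *Usp38* also did not pass the test, with log2 fold changes of -0.15 to 0.12. Without KO 1 *Otud7b* passed (log2 fold change -0.16, adjusted p = 0.0461).

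Enzymes of endosomes, the endoplasmic reticulum and mitochondria comprised 10 genes, 3 higher and 2 lower. The shares over all genes tested were 24.7% higher and 22.7% lower. ATXN3, the polyglutamine protein of Machado-Joseph disease, and YOD1 both work with the segregase VCP, which pulls proteins from the endoplasmic reticulum. *Atxn3* stood at 14.3, 13.2 and 15.7 FPKM in KO cells and at 12.7, 10.5 and 10.9 FPKM in NTC cells (log2 fold change 0.33, SE 0.09, adjusted p = 0.0249). *Yod1* stood at 2.29, 2.43 and 2.48 FPKM in KO cells and at 3.01, 3.35 and 3.10 FPKM in NTC cells (log2 fold change -0.33, SE 0.08, adjusted p = 0.0119). These genes thus moved in opposite directions, each without overlap between the groups. Without KO 1, KO 3, NTC 2 or NTC 3 the adjusted p of *Atxn3* was 0.0607, 0.0774, 0.0745 and 0.0721.

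*Usp19*, for a protease anchored in the endoplasmic reticulum, had 36.1, 36.1 and 35.5 FPKM in KO cells and 31.8, 29.3 and 32.4 FPKM in NTC cells (log2 fold change 0.20, adjusted p = 0.0135). After centring on the chromosome median *Usp19* no longer passed (log2 fold change 0.11, adjusted p = 0.128). *Usp32*, for an endosomal protease, had 14.8, 14.3 and 14.2 FPKM in KO cells and 12.8, 11.6 and 11.7 FPKM in NTC cells (log2 fold change 0.25, adjusted p = 0.0107). *Usp33*, which encodes a protease that acts on receptors and on the GTPase RALB, had 27.1, 26.3 and 28.0 FPKM in KO cells and 29.6, 29.8 and 31.6 FPKM in NTC cells. This was the smallest change among the called members (log2 fold change -0.16, adjusted p = 0.0314), and its adjusted p was 0.0772, 0.0955, 0.0574 and 0.0824 without KO 1, KO 2, NTC 2 and NTC 3. *Usp8* and *Stambp*, for the pair of enzymes that act on receptors at the endosome, *Usp30*, for the mitochondrial protease that opposes mitophagy, and *Usp10* and *Usp20* did not pass the test, with log2 fold changes of 0.04 to 0.16.

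The remaining 11 genes included 2 higher and 3 lower, against 24.7% higher and 22.7% lower over all genes tested. *Usp35*, among the least abundant members, had 1.78, 2.24 and 1.96 FPKM in KO cells and 1.13, 0.838 and 1.40 FPKM in NTC cells (log2 fold change 0.63, SE 0.15, adjusted p = 0.0123). *Usp43* had 24.6, 24.3 and 25.3 FPKM in KO cells and 14.6, 21.0 and 19.9 FPKM in NTC cells (log2 fold change 0.43, SE 0.13, adjusted p = 0.0299). Its KO libraries agreed closely and 1 NTC library stood below the others, and its adjusted p was 0.0719, 0.0666 and 0.0814 without KO 1, KO 2 and KO 3. *Usp54* stood at 7.22, 8.05 and 8.26 FPKM in KO cells and at 10.9, 10.2 and 10.9 FPKM in NTC cells (log2 fold change -0.42, SE 0.07, adjusted p = 0.00256). Its homologue *Usp53*, whose product lies at tight junctions, had 4.87, 5.08 and 5.07 FPKM in KO cells and 6.57, 5.87 and 6.09 FPKM in NTC cells (log2 fold change -0.28, adjusted p = 0.0137). *Otud6b* had 14.4, 14.5 and 14.1 FPKM in KO cells and 17.3, 18.6 and 19.2 FPKM in NTC cells (log2 fold change -0.35, SE 0.05, adjusted p = 0.00209). *Usp34*, for a very large protease of the Wnt pathway, was at a log2 fold change of 0.03 (adjusted p = 0.647). *Otud3*, *Usp24*, *Usp31* and *Usp40* ran from -0.19 to 0.12 and did not pass the test, but *Usp40* did without KO 1 (log2 fold change -0.24, adjusted p = 0.0425). *Usp6nl*, which is no deubiquitinase, had 28.3, 28.8 and 29.1 FPKM in KO cells and 30.2, 30.7 and 29.8 FPKM in NTC cells and did not pass the test (adjusted p = 0.169).

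Of 15 homologous pairs with both genes tested, *Usp25* and *Usp28* were both higher, *Usp53* and *Usp54* both lower, and *Usp36* and *Usp42* were called in opposite directions. In 9 pairs 1 gene was called, and in 3 pairs (*Usp16* and *Usp45*, *Otub1* and *Otub2*, *Usp2* and *Usp21*) neither was. Whether the 2 genes of a pair differed in their response was not tested. The ratio of mean FPKM shifted for several: *Usp4* to *Usp15* was 2.50 in KO cells and 2.02 in NTC cells, *Usp9x* to *Usp24* was 1.57 in KO cells and 1.93 in NTC cells, and *Josd1* to *Josd2* was 2.78 in KO cells and 3.19 in NTC cells. Some called members share long stretches with other genes or pseudogenes: *Usp1* shares 2178 bases at 97.9% identity with *Gm5841*, *Otud6b* 885 bases at 97.2% with *Gm12444*, *Josd1* 609 bases at 99.7% with *Gm10651*, *Usp33* 1411 bases with *Gm43857* and *Usp43* 609 bases with *9130017K11Rik*, both at 100% and on the opposite strand. *Usp9x* shares 671 bases with *AC134468.1* and *Usp46* 214 bases with *Usp46os2*, both at 100%. How reads from such stretches were assigned is unknown, so the values of these genes are less certain.

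Genes around the enzymes were read from further lists. The first held 20 genes outside the name rule, for deubiquitinases and for proteins with related folds, not all of which cut ubiquitin. Of these, 6 were higher and 3 lower, against 24.7% higher and 22.7% lower over all genes tested. Their median on the log2 scale was 0.02. *Tnfaip3*, which encodes the NF-κB inhibitor A20, had 49.3, 47.0 and 26.8 FPKM in KO cells and 22.7, 23.1 and 20.8 FPKM in NTC cells (log2 fold change 0.83, adjusted p = 0.0193). Its KO values were widely spread, and its adjusted p was 0.0583, 0.0618 and 0.0588 without KO 1, KO 2 and NTC 3. *Otulin*, for the protease that cuts linear ubiquitin chains, had 11.4, 11.1 and 11.6 FPKM in KO cells and 14.9, 15.2 and 15.3 FPKM in NTC cells (log2 fold change -0.40, adjusted p = 0.000601). *Uspl1*, for a relative of the USP enzymes that acts on SUMO, had 14.1, 15.0 and 7.70 FPKM in KO cells and 6.74, 6.86 and 7.53 FPKM in NTC cells (log2 fold change 0.71, adjusted p = 0.0423), and the call was lost in 10 of 15 alternatives, with adjusted p of 0.123, 0.119, 0.102, 0.0970 and 0.0771 without KO 1, KO 2, NTC 1, NTC 2 and NTC 3. *Eif3f*, for a translation factor with a JAMM fold, had 93.0, 102 and 106 FPKM in KO cells and 87.5, 80.0 and 59.4 FPKM in NTC cells (log2 fold change 0.42, adjusted p = 0.0424), and the call was lost in 8 of 15 alternatives, with adjusted p of 0.0621, 0.103, 0.115 and 0.0607 without KO 1, KO 2, KO 3 and NTC 2.

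Of 29 entries for proteins that bind or activate deubiquitinases, 6 were higher and 7 lower, and their median on the log2 scale was -0.03. Shares over all genes tested were 24.7% higher and 22.7% lower. Before centring on the chromosome median, described further on, the largest changes here exceeded those of the enzymes. *Gmps*, for the GMP synthetase that binds USP7, had 13.9, 15.4 and 14.7 FPKM in KO cells and 28.6, 28.4 and 30.3 FPKM in NTC cells (log2 fold change -0.97, adjusted p = 2.88e-05). *Shmt2*, for the serine hydroxymethyltransferase that joins BRCC3 in the BRISC complex, had 91.5, 96.8 and 89.7 FPKM in KO cells and 173, 172 and 165 FPKM in NTC cells (log2 fold change -0.88, adjusted p = 1.61e-05). Both groups were tight and far apart. *Eny2*, for a subunit of the SAGA module that holds USP22, had 13.6, 13.0 and 12.1 FPKM in KO cells and 22.1, 23.5 and 24.3 FPKM in NTC cells (log2 fold change -0.83, adjusted p = 8.77e-05), opposite in direction to *Usp22*. *Foxk1*, for a transcription factor that binds the BAP1 complex, had 27.7, 27.1 and 26.4 FPKM in KO cells and 17.7, 19.6 and 16.9 FPKM in NTC cells (log2 fold change 0.57, adjusted p = 0.000431), opposite in direction to *Bap1*. Of the other SAGA module genes listed, *Atxn7* and *Atxn7l3* did not pass the test. For other BAP1 partners listed, *Hcfc1* was lower like *Bap1*, *Asxl1* and *Foxk2* were higher and *Asxl2* did not pass. Among the E1 enzymes, *Uba6* was lower (log2 fold change -0.49, adjusted p = 0.000601).

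The members' changes varied with the chromosome they lie on, a pattern that was seen after the values were known and is given without a test. The median log2 fold change of all genes tested on a chromosome was -0.39 on chromosome 3 (592 genes), -0.24 on chromosome 14, -0.18 on chromosome 18, -0.17 on the X chromosome and -0.16 on chromosome 15. The highest medians were 0.18 on chromosome 12 and 0.12 on chromosome 4. Of the chromosomes that hold members tested, 5 had a median under -0.1, and on these lay 13 members tested, of which 0 were higher, 8 were lower and 5 did not pass the test, with a median of -0.27. Among all 2140 genes tested there, 10.8% were higher and 47.0% lower. On the other 14 chromosomes that hold members, 15 of 50 were higher and 7 lower, with a median of 0.10, against 27.9% higher and 17.6% lower among the 9549 genes tested there. Across the 63 members the log2 fold change had a Pearson r of 0.487 (Spearman rho 0.483) with the median of its chromosome and of 0.501 (rho 0.495) with the median of the neighbouring genes within 5 Mb. With log2 exon length r was -0.02 and with log2 mean FPKM it was -0.03. These points share the same 6 libraries, and members on 1 chromosome share its median.

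**Figure D4:**
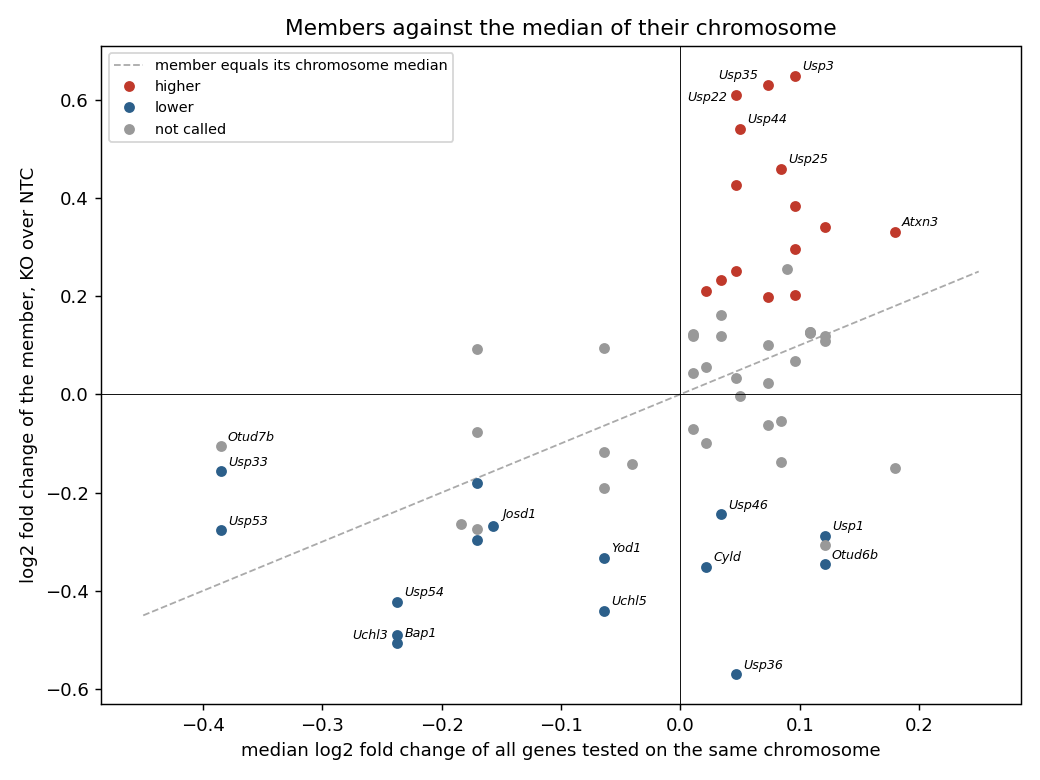
Log2 fold change of KO over NTC cells for each of the 63 members tested (vertical axis) against the median log2 fold change of all genes tested on its chromosome (horizontal axis), in red where higher, blue where lower and grey where not called, with a dashed line where a member equals its chromosome. The points at -0.39 (chromosome 3) and -0.24 (chromosome 14) include no red point, while *Usp36* at -0.57, and *Otud6b* and *Usp1* on chromosome 4, lie far below the dashed line.

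All 3 members on chromosome 14, *Bap1*, *Uchl3* and *Usp54*, were lower, and of the 5 members tested on chromosome 9, 4 were higher (*Usp3*, *Usp28*, *Usp4* and *Usp19*). Over all genes tested, 24.7% were higher and 22.7% lower, and the median on chromosome 9 was 0.10. The 3 members on chromosome 3 lay above its median of -0.39, *Usp53* at -0.28, *Usp33* at -0.16 and *Otud7b* at -0.11. *Gmps* lies on chromosome 3 too, and *Eny2* on chromosome 15. The median of the genes within 5 Mb was -0.65 for *Gmps* and -0.58 for *Eny2*. After the centring described next, *Gmps* was at -0.57 and *Eny2* at -0.66, against -0.62 for *Usp36*. *Shmt2*, on chromosome 10, was then at -0.93. When each library's values were centred on the median of each chromosome, 12 members were higher and 12 lower, and 19 of the 30 calls were kept. *Bap1* was then at -0.27 (adjusted p = 0.0461), *Uchl3* at -0.26 (adjusted p = 0.0494) and *Usp54* at -0.19 (adjusted p = 0.0523). *Usp33* turned to 0.24 (adjusted p = 0.00896) and *Usp53* to 0.12 (adjusted p = 0.201). Besides *Josd1*, *Usp9x* and *Usp19*, the calls of *Brcc3* (-0.12, adjusted p = 0.232), *Atxn3* (0.15, adjusted p = 0.205), *Usp42* (0.20, adjusted p = 0.0879), *Usp43* (0.37, adjusted p = 0.0525) and *Usp48* (0.22, adjusted p = 0.157) were lost. Calls were gained for *Otud7b* (0.29, adjusted p = 0.00699), *Otub2* (-0.33, adjusted p = 0.0270), *Usp16* (-0.25, adjusted p = 0.0182) and *Usp7* (-0.16, adjusted p = 0.0111). *Usp22* at 0.56 (adjusted p = 4.3e-05), *Usp36* at -0.62 (adjusted p = 0.000213), *Usp1* at -0.41 and *Otud6b* at -0.47 stood apart from their chromosomes. The part of the chromosome-wide differences in the members' changes was not tested beyond this centring.

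Markers of epithelial and of other cells were also read. Of 6 epithelial markers tested, 2 were higher and 1 was lower. *Epcam* had 224, 234 and 230 FPKM in KO cells and 126, 141 and 104 FPKM in NTC cells (log2 fold change 0.90, adjusted p = 0.000488), *Cldn4* 252, 253 and 241 FPKM in KO cells and 142, 152 and 148 FPKM in NTC cells (log2 fold change 0.75, adjusted p = 2.11e-05). The keratin gene *Krt8* was lower, at 556, 556 and 551 FPKM in KO cells and 631, 627 and 676 FPKM in NTC cells (log2 fold change -0.22, adjusted p = 0.00308). The 6 markers summed to 2031 to 2054 FPKM in KO libraries and 1921 to 1964 FPKM in NTC libraries. Of 4 fibroblast markers listed, *Pdgfra* and *Col1a1* were tested and both were higher. *Pdgfra* had 4.64, 5.43 and 5.76 FPKM in KO cells and 2.80, 2.55 and 2.72 FPKM in NTC cells. The 4 markers summed to 5.40 to 6.70 FPKM in KO libraries and 2.96 to 3.19 FPKM in NTC libraries. *Col1a2* and *Dcn* did not pass the filter on low values. The part of these markers in the members' changes was not tested.

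The stretch before each gene's start was read as well. RefSeq gave 60 promoters for 56 of the 70 members, from 250 bases before to 50 bases after the start (build GRCm38.p6). The Sp1 site, GGGCGG on either strand, was found in 40 of the 60 (66.7%), against 35.7% of 32851 promoters of all genes. The promoters of all genes were taken whether or not the gene was expressed in these cells. No background of tested genes was made. Among members called, 9 of 11 higher genes and 9 of 10 lower genes with a promoter held the Sp1 site, as did 20 of 29 (69.0%) that did not pass the test. The core of the interferon-stimulated response element, GAAA, any 2 bases and GAAA on either strand, was found in 3 of the 60 (5.00%), against 3.44% of all promoters, and in 0 of the 21 called genes. The interferon-γ-activated site, TTCNNNGAA on either strand, was found in 4 of the 60 (6.67%), against 8.30% of all, and also in 0 of the 21. The response element matches lay in *Usp17lc*, *Usp17ld* and *Usp49*, and those of the activated site in *Usp17la*, *Usp17lc*, *Usp17ld* and *Usp27x*. The *Usp17l* genes among them did not pass the filter on low values. Of the other motifs searched on both strands, the CCAAT box (CCAAT) was in 35.0% of the members' promoters against 37.4% of all, the ETS site (CCGGAAG) in 16.7% against 8.86%, the E-box (CACGTG) in 15.0% against 7.15%, the AP-1 site (TGANTCA) in 8.33% against 7.81%, the NRF1 site in 6.67% against 4.6% and the CRE in 3.33% against 1.79%. The letters searched do not contain one another. A match is a run of letters and was not tested as a binding site. The promoters of the called members with the largest change in each direction that had a sequence and held the Sp1 site are shown 5′ to 3′ on the strand of the gene, with that site in capitals.
*Usp3*: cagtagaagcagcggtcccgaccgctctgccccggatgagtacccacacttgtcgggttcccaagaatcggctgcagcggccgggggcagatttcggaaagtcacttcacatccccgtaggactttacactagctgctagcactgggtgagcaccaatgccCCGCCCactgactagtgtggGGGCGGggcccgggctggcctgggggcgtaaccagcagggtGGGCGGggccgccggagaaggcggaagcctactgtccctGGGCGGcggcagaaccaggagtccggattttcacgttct
*Usp35*: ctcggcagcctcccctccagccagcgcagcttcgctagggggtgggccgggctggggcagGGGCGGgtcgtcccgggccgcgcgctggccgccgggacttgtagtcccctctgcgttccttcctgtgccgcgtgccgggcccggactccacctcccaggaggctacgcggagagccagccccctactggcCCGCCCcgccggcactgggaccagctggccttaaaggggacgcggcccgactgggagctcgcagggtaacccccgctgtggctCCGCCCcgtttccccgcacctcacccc
*Usp36*: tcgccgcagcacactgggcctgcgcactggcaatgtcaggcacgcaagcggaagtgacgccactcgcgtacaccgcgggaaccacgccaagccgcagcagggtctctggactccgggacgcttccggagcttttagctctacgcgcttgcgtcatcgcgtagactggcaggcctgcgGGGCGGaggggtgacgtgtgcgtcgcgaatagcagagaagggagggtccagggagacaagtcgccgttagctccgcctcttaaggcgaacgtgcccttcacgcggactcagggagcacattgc
*Bap1*: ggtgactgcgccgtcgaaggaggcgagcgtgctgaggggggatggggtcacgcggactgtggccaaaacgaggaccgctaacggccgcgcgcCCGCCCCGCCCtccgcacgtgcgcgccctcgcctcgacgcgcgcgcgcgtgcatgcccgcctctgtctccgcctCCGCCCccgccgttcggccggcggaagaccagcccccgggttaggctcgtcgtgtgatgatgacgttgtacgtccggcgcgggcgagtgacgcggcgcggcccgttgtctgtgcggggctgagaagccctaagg
The *Usp3* promoter (chr9:66593066-66593365, minus strand) holds 4 such sites, that of *Usp35* (chr7:97332060-97332359, minus) 3, that of *Usp36* (chr11:118290195-118290494, minus) 1 and that of *Bap1* (chr14:31251239-31251538, plus) 3, of which 2 overlap by 1 base. *Usp3* and *Usp35* were higher and *Usp36* and *Bap1* lower in KO cells. These promoters were picked for holding the site, so they say nothing of its share in either direction.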

How the data were processed

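The deposited table holds FPKM per gene and library, made by the authors, with their fold changes, p-values and q-values, which were not used. The study's methods name HISAT2, StringTie and Cuffdiff on GRCm38, whereas the submitters' notes name CASAVA 1.8, Trimmomatic, HISAT2 and RSEM on mm10, and no source used here says which of them made the file. The kits named also differ, so whether strand was used is not settled, and reads of overlapping antisense genes may not be told apart. Read counts were not used here, whole reads could not be recovered, and the depth is unknown.

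FPKM were transformed to log2(FPKM + 0.5) and genes that reached 0.5 FPKM in 3 or more of 6 libraries were kept. The whole table was fitted with limma 3.58.1 in R 4.3.3 (linear model, empirical Bayes with an intensity trend), KO against NTC, and p-values were adjusted by Benjamini-Hochberg over these 12190 genes (threshold 0.05). An exact permutation test of 3 libraries against 3 cannot go below 0.1, so the p-values rest on limma's model. The procedure was tested on simulated data, drawn with the spread of the real values and 50 changed genes per fold. It recovered 42% of 1.25-fold, 72% of 1.5-fold, 88% of 2-fold and 100% of 4-fold changes, and 3.82% of its calls were false. A member that did not pass the test was thus not shown to be unchanged. Identifiers, exons and coding sequences came from GENCODE M21, which held all 70 members at the deposited coordinates. A search with blastn 2.17.0 found 18 members that share 200 or more bases at 95% identity with another gene, 15 of them tested. Of these 15, 1 was higher and 7 were lower, against 24.7% higher and 22.7% lower over all genes tested. The assignment of reads from such stretches is unknown, so 7 of the 15 lower calls among the members are less certain. Promoters came from RefSeq.

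The members and the lists were chosen with earlier results of these data known. Named in full were the 10 members with the largest calls in each direction, the 5 most abundant, the 3 nearest to no change, homologous pairs, members named for their role, *Uba6*, and up to 4 called genes of each further list. 1 gene that this rule names is not reported here. Alternatives were an added constant of 0.1 or 1 FPKM, a filter of 1 FPKM or none, quantile normalization, scaling by the median of ratios, no trend, the replicate number as a block, leaving out each library and, chosen after seeing the data, centring on the chromosome median. Python 3.11.15 with matplotlib 3.10.9 made the figures.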

Additional observations from a re-analysis of the deposited data

How the results depend on the processing

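The count of higher members (15) was 13 to 16 and that of lower members (15) was 13 to 16 over the alternatives that kept all libraries and the deposited scale or a global scaling, 12 and 12 after centring on the chromosome median, and 11 to 13 and 12 to 15 when 1 library was left out. In all alternatives 9 of the 15 higher and 8 of the 15 lower calls were kept, and leaving out a library kept 22 to 26 of the 30. Over all genes, leaving out a library gave 2264 to 2698 higher and 2291 to 2477 lower genes. Over all genes, shared replicate numbers gave no sign of pairing. Same-numbered deviations had correlations of -0.0567 to 0.0156, and 1 of 6 libraries correlated best with its own number. Such correlations cannot exclude a pairing. With the number as a block the adjusted p of *Usp12* was 0.148, against 0.873 in the main test. With the number as a block 14 members were higher and 15 lower, and 29 of 30 calls were kept: that of *Usp42* was lost (adjusted p = 0.0948), as were, outside the members, those of *Eif3f* (0.0759) and *Uspl1* (0.0639). No scaling moved the median of all genes by more than 0.0301.

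Called members that turned their sign did so after centring on the chromosome median, *Usp33* to 0.24 and *Usp53* to 0.12. Some members that did not pass the test also turned. After centring, *Otud7b* was at 0.29 and passed the test (adjusted p = 0.00699), *Otud3* was at -0.0071, *Usp11* at 0.10, *Usp2* at -0.026, *Usp24* at -0.016, *Usp34* at -0.017 and *Zranb1* at -0.054. With quantile normalization *Usp15* was at 0.014, *Usp2* at -0.14, *Usp20* at -0.085 and *Usp7* at 0.00050. When 1 library was left out, the log2 fold change of *Josd2* ran between -0.15 and 0.039, *Otud5* between -0.014 and 0.17, *Usp10* between -0.054 and 0.14, *Usp12* between -0.37 and 0.59, *Usp15* between -0.077 and 0.071, *Usp2* between -0.11 and 0.17, *Usp20* between -0.058 and 0.11, *Usp34* between -0.0043 and 0.065 and *Usp49* between -0.0081 and 0.58. The cause was not tested.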

Other observations

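*Usp12* was low in the library numbered 2 of each group, at 5.68 FPKM in KO 2 and 5.09 FPKM in NTC 2, against 14.7 to 16.1 FPKM in the other 4 libraries. Across all genes tested, 11 lay at least 1.5-fold below the other libraries of their group in both libraries numbered 2, against 13 genes for number 1 and 14 for number 3. In single libraries such genes numbered 151 (KO 2) and 166 (NTC 2), 171 (KO 1) and 174 (NTC 1), and 133 (KO 3) and 253 (NTC 3). Libraries with unlike numbers were not set side by side, so a link between shared numbers was not tested by these counts.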
